A study of Mus musculus with 2 samples.

Results

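The microRNAs (miRNAs) described here are those encoded inside the mouse Hox gene clusters: mmu-miR-196a, mmu-miR-196b, mmu-miR-10a, mmu-miR-10b, mmu-miR-615-5p and mmu-miR-615-3p. They were taken by name from the array, where 6 of the 566 mouse miRNA names belong to them. The study measured 2 RNA samples from C57BL/6J mice, with 1 Agilent miRNA array for each and a single dye, Cy3. The first, total BM, was RNA from whole bone marrow. The second was RNA from LKS cells, marrow cells negative for lineage markers and positive for Kit and Sca1, isolated by magnetic column purification followed by fluorescent sorting. The sources used here do not give the age, sex or number of mice. Whole marrow is made up largely of maturing blood cells, whereas the LKS gate holds haematopoietic stem cells and early progenitors, so the comparison asks which miRNAs differ in level between that fraction and the tissue it comes from. There was 1 array per group, so no p-value or SD can be given, and every error below is the technical error deposited with a signal or computed from it.

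Hox genes encode transcription factors that pattern the body axis, and in blood several of them, Hoxa9, Hoxa10 and Hoxb4 among them, are active in stem and progenitor cells and fall during maturation. The miRNAs that lie between or within Hox genes fall into the miR-196 family, the miR-10 family and miR-615. MiR-196 is known to direct cleavage of Hoxb8 mRNA in mouse embryos, and miR-196b is known to be abundant in leukaemias with rearranged MLL, where Hoxa9 is also high. A miRNA finds its targets mainly through its seed, bases 2 to 8 from the 5′ end.

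The mature sequences are shown because the members form 2 pairs of near-copies, which bears on how their array signals are read. All 6 members matched a RefSeq mature sequence (build GRCm38.p6). They are written 5′ to 3′ with the seed in capitals.
mmu-miR-196b-5p: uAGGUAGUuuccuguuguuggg
mmu-miR-196a-5p: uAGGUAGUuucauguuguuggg
mmu-miR-10a-5p: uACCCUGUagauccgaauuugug
mmu-miR-10b-5p: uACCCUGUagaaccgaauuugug
mmu-miR-615-5p: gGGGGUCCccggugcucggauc
mmu-miR-615-3p: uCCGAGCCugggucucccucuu

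MiR-196a and miR-196b share the seed AGGUAGU and 21 of 22 bases, and differ by the substitution C12A (the base of miR-196b, the position counted from the 5′ end, then the base of miR-196a). MiR-10a and miR-10b share the seed ACCCUGU and 22 of 23 bases, and differ by U12A, with miR-10a given first. Each of these seeds occurs at bases 2 to 8 in 2 of 1679 mouse mature miRNA names in the RefSeq table, which in both cases are the pair itself. The arms of miR-615 have seeds of their own, GGGGUCC and CCGAGCC, each found at bases 2 to 8 in 1 of the 1679 names.

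The genes lie in different Hox clusters. On GRCm38.p6, the miR-196b sequence is at chr6:52230129-52230150 on the minus strand, in the Hoxa cluster between Hoxa9 and Hoxa10, within the span of the long noncoding gene Gm52902. The miR-196a sequence is encoded at 2 loci. One is Mir196a-1 at chr11:96265187-96265208 on the plus strand, between Hoxb13 and Hoxb9 and within the long noncoding gene Gm51876. The other is Mir196a-2 at chr15:102973365-102973386 on the plus strand, between Hoxc10 and Hoxc9. Both loci give the same mature sequence, so 1 array name covers them. MiR-10a is at chr11:96317186-96317208 on the plus strand, between Hoxb5 and Hoxb4 and within the annotated span of Hoxb3. MiR-10b is at chr2:74726074-74726096 on the plus strand, within the spans of Hoxd3 and Hoxd4. Both miR-615 arms come from a hairpin within the span of Hoxc5, the 5p arm at chr15:103014926-103014947 and the 3p arm at chr15:103014969-103014990 on the plus strand. Whether these positions are exonic or intronic was not examined.

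Of the 6 Hox cluster miRNAs, miR-196b and miR-10a were detected on both arrays and the other 4 on neither. The deposited detection call thus found 2 of 6 in LKS cells, where 17.3% of all 566 mouse miRNAs were detected, and 2 of 6 in total BM, where 25.6% were. On both arrays at once, 33.3% of the members and 16.4% of all names were detected. With so few members, the gap between these shares is 1 name. The detected pair consists of 1 member of each family, from the Hoxa and the Hoxb cluster. No miRNA encoded in the Hoxc or Hoxd cluster alone was detected.

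The 2 arrays differed in the level of their signals, which affects each ratio below. Detected signals of mouse miRNAs summed to 52484 intensity units over 145 names on total BM and 23256 over 98 names on LKS. Array brightness and RNA composition cannot be told apart in these sums. Signals were scaled by dividing each array by the 75th percentile of its signals for the 93 mouse miRNAs shared by (detected on) both arrays. That step raised every ratio of LKS to total BM by 0.72 on the log2 scale (1.65-fold). The labels were checked against miRNAs of known cell types. All 3 erythroid miRNAs (miR-451, miR-144 and miR-486) were called detected in total BM, whereas none was in LKS cells, where their signals summed to -10.6 intensity units against 309.5 in total BM. The neutrophil miRNA miR-223 remained detected in LKS cells, with a signal of 822 ± 73.0 against 7250 ± 641 in total BM. Total BM showed both of the lymphoid pair miR-150 and miR-342-3p, and LKS cells 1 of them. The endothelial and megakaryocytic miR-126-3p was detected on both arrays, with signals of 24.2 ± 3.38 (total BM) and 87.6 ± 7.01 (LKS), and miR-126-5p on neither. Of 10 published stem and progenitor miRNAs, which include miR-126-3p again, LKS cells showed 10 and total BM 6. That list was drawn up with earlier results of these data known and may have been chosen in part on these samples. Its counts are therefore no check of the labels. Kit and Sca1, which define the gate, are proteins and were not measured. The part that mature cells, or the other cells these miRNAs mark, have in the ratios of miR-196b and miR-10a was not tested.

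MiR-196b was the Hox cluster miRNA with the larger difference. Its signal was 164 ± 15.4 intensity units on the LKS array and 9.78 ± 2.997 on the total BM array. The LKS signal was thus well clear of its error, at 10.7 times that error, while the total BM signal was faint, at 3.26 times its error. As deposited, the LKS signal was 16.8-fold the total BM signal, and after scaling 27.7-fold (log2 ratio 4.79 ± 0.46, technical error). The raw difference of 154.5 intensity units was 9.86 combined errors of the 2 signals. In a bulk sample such as this, more cells that carry a miRNA and more of it per cell cannot be told apart.

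The size of the miR-196b excess is less certain than its direction, because it rests on the faint total BM signal. On that array, 2 mouse miRNAs called undetected had a higher signal than miR-196b, up to 10.4 intensity units, and 13 called detected had a lower one. With the total BM signal raised by 2 of its errors, to 15.8, the scaled ratio was 17.2-fold. With the LKS signal also lowered by 2 of its errors, it was 13.98-fold scaled and 8.46-fold in the signals as deposited. The ratio of miR-196b ranked 1 among the 93 shared miRNAs under the scaling used and under each of the 8 alternatives tried. Alternatives that apply 1 factor to a whole array, or none, cannot change a rank. The ranking leaves out the 5 mouse miRNAs detected in LKS cells only, which have no ratio. Under the alternatives, the miR-196b ratio ranged from 12.9-fold in the authors' deposited value table to 120.2-fold with scaling on all miRNAs, detected or not. In that last scaling the 75th percentile lay at or near background, as 17.3% of mouse names were detected in LKS cells and 25.6% in total BM. It put 77 of the 93 shared miRNAs at least 2-fold higher in LKS cells, so 120.2-fold depends on the background of each array.

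MiR-10a was bright on both arrays and differed less. It read 219 ± 18.5 intensity units on the LKS array and 144 ± 12.4 on that of total BM, which is 11.8 and 11.6 times the error. The LKS signal was 1.52-fold the total BM signal as deposited, a raw difference of 75.3 intensity units or 3.38 combined errors. After scaling, the ratio was 2.52-fold (log2 ratio 1.33 ± 0.17). The excess in LKS cells thus held with and without scaling, but only the scaled value passed 2-fold. With each signal moved by 2 errors towards the other, the ratio was 1.78-fold scaled and 1.08-fold as deposited. Its ratio ranked 11 of 93, and between 8 and 14 under the alternatives.

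**Figure D1:**
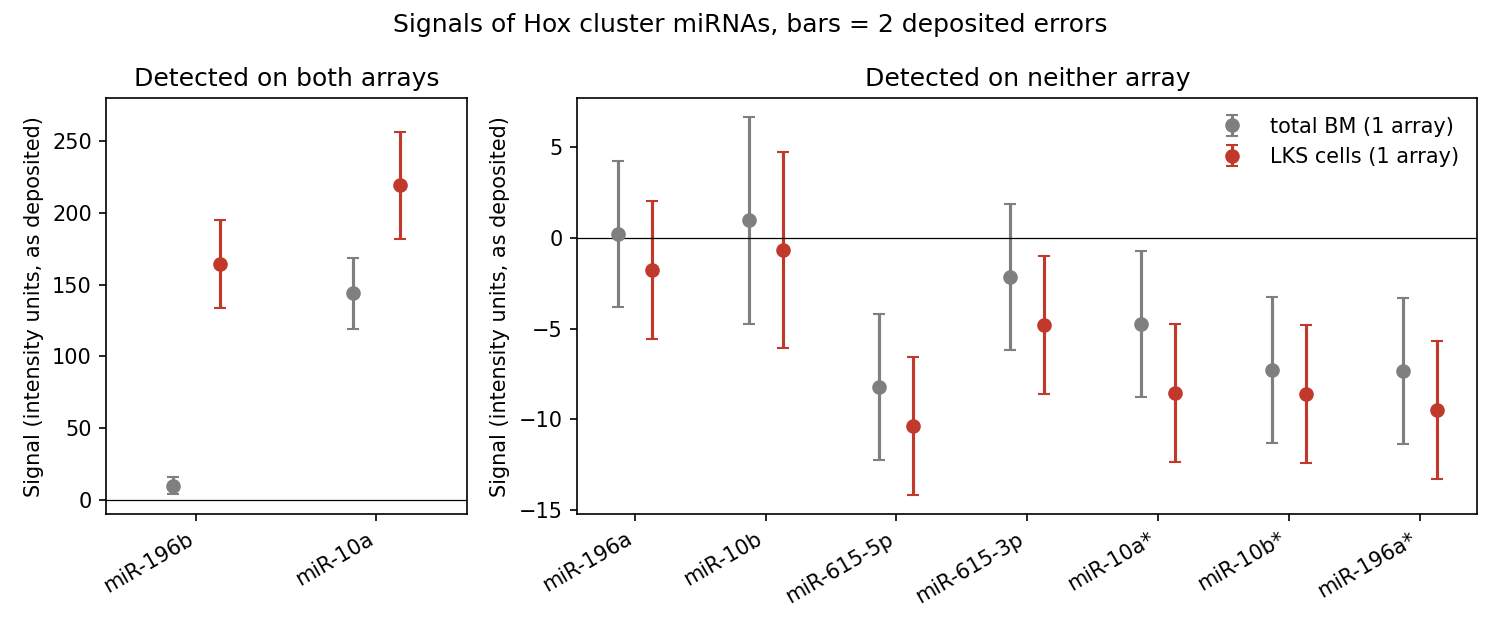
Signals of the Hox cluster miRNAs in intensity units as deposited, with total BM in grey and LKS cells in red, 1 array each, and bars of 2 deposited errors. Left, miR-196b (9.78 in total BM and 164 in LKS cells) and miR-10a (144 and 219), detected on both arrays. Right, on its own scale, the 4 other members and 3 other arms, detected on neither array, with signals near or below 0.

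Both detected members passed 2-fold in the direction of LKS cells, a call made for 18.3% of the 93 shared miRNAs (17 of 93). Neither member was at least 2-fold lower in LKS cells, while 18.3% of the shared miRNAs were. Without scaling, 1 of the pair, miR-196b, passed 2-fold, against 7.53% of the shared miRNAs (7 of 93). With a 4-fold threshold after scaling, it was again miR-196b alone, and again 7.53% of the shared miRNAs passed. The median log2 ratio of all 93 was 0.07 after scaling and -0.65 without it, so both members lay above the median on either scale. A pair of values is too few to describe the Hox cluster miRNAs as a class.

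**Figure D2:**
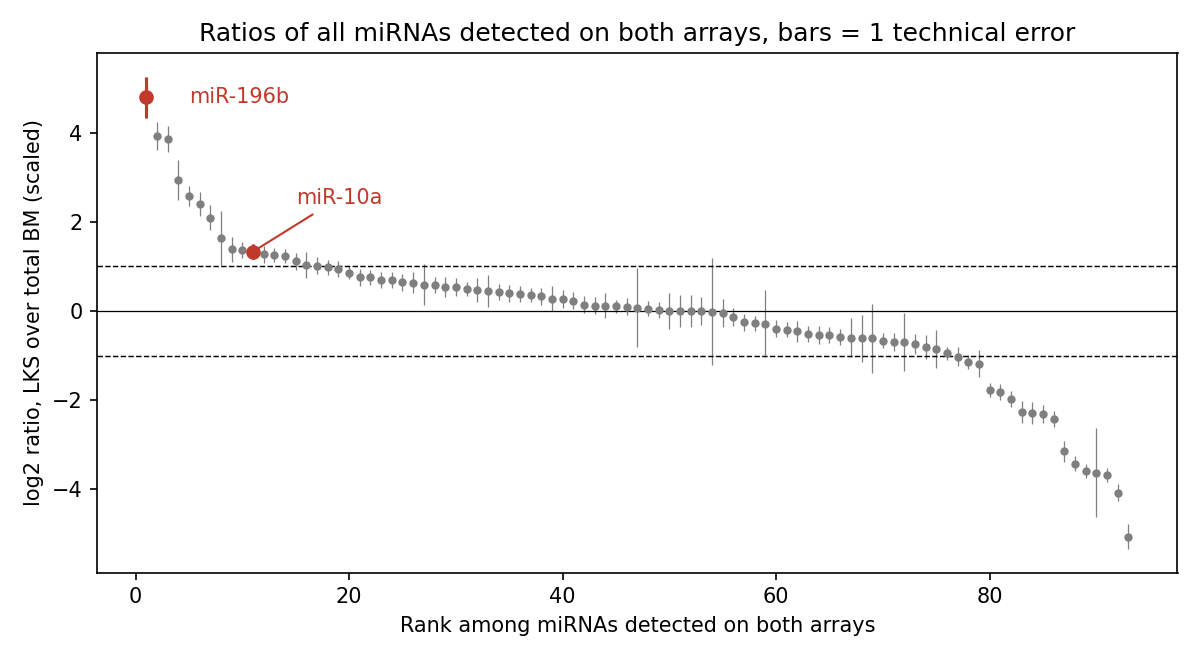
Log2 ratios of LKS over total BM after scaling (vertical axis) for the 93 miRNAs detected on both arrays, ordered by rank, with bars of 1 technical error and dashed lines at 2-fold. MiR-196b, in red, is at rank 1 with 4.79, and miR-10a, also in red, at rank 11 with 1.33, just above the upper dashed line.

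The ratios of the 2 detected members differed from each other by more than their errors. The log2 ratio of miR-196b exceeded that of miR-10a by 3.46 ± 0.49, or 11.0-fold, which is 7.01 times the technical error of this difference. A factor applied to a whole array cancels in this difference, so it was the same under each scaling by 1 factor. It was 3.86 with quantile normalization, 3.03 with loess, 3.12 after recentring the background, and 3.01 from the authors' deposited value table. In LKS cells both signals were well clear of their errors, whereas in total BM that held for miR-10a, and miR-196b was faint. Probes of different miRNAs differ in affinity, so these signals do not say which of the 2 was more abundant in either sample.

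The other member of each family was called undetected on both arrays, with a signal above the median of the undetected names. MiR-196a read -1.77 ± 1.91 for LKS and 0.246 ± 2.01 for total BM. MiR-10b read -0.661 ± 2.71 for LKS and 0.983 ± 2.85 for total BM. On both arrays these signals lay within 1 error of 0. The middle 90% of undetected mouse miRNAs ran from -12.26 to 2.96 in LKS cells and from -8.46 to 4.44 in total BM, and both members lay inside it on each array. The signal plus 2 errors, as an upper limit, came to 2.06 in LKS cells and 4.28 in total BM for miR-196a, and to 4.75 and 6.69 for miR-10b. These limits count from 0, while the median undetected signal lay below 0 on both arrays. Counted from that median, an alternative added after seeing the data, they were 7.61 in LKS cells and 7.30 in total BM for miR-196a, and 10.3 and 9.71 for miR-10b, and were no longer lower on the LKS array.

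MiR-615 was not detected from either arm. The 3p arm read -4.79 ± 1.91 for LKS and -2.14 ± 2.01 for total BM. The 5p arm read -10.4 ± 1.91 and -8.21 ± 2.01, in the lower part of the undetected range. All 4 undetected members had a lower signal on the LKS array, with differences (LKS minus total BM) of -0.42 (miR-10b) to -0.96 (miR-615-3p) combined errors, so none differed by more than the error. The background itself was lower on that array, with a median undetected signal of -5.55 against -3.02 on total BM. With these medians subtracted, the differences ran from -0.04 to 0.23 combined errors, and the sign turned for 3 of the 4. No fold is given for any of them. At these signals a difference between the samples was not detectable.

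The single-base pairs show how far the probes separated near-copies. In LKS cells the miR-196b probe set read 164 ± 15.4 while that of miR-196a, 1 base different, was not detected. The miR-10a probe set read 219 ± 18.5 there and 144 ± 12.4 in total BM, while that of miR-10b, also 1 base different, was detected on neither array. The same held for miR-99a and miR-100, relatives of the miR-10 family that differ by U16A, of which miR-99a read 161 ± 15.4 in LKS cells and miR-100 read -2.13 ± 2.71. In these 3 pairs, the signal of 1 partner was thus not enough for the other to be called detected. Counted from the median undetected signal, the undetected partners read 3.79 ± 1.91 (miR-196a), 4.89 ± 2.71 (miR-10b) and 3.42 ± 2.71 (miR-100) in LKS cells. Whether a small part of this came from the detected partner was not tested. The reverse, whether a detected probe set also reads other RNAs, was not tested.

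Sequence relatives outside the Hox clusters were set beside the members. The miR-10 seed is not shared with the miR-99 family, whose seed is ACCCGUA, but miR-10a and miR-99a share the run GUAGAUCCGA of 10 bases, from base 7 of miR-10a and base 6 of miR-99a.
mmu-miR-10a-5p: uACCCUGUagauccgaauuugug
mmu-miR-99a-5p: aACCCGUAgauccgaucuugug
mmu-miR-100-5p: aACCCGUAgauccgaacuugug
MiR-99a was detected on both arrays and was 15.1-fold higher in LKS cells after scaling (log2 ratio 3.92 ± 0.31), so it had a larger ratio than miR-10a. MiR-100, whose run shared with miR-10a is 11 bases, and miR-99b were detected on neither array.

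The miR-196 seed AGGUAGU also occurs in the let-7 family, shifted by 1 base so that it starts at base 3. It was found anywhere in the sequence, on the RNA strand as written, in 13 of the 1679 RefSeq mature names. Of the 9 let-7 family names on the array (let-7a to let-7g, let-7i and miR-98), 8 hold it, and let-7e holds 6 of its 7 bases.
mmu-miR-196b-5p: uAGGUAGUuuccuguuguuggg
mmu-let-7c-5p: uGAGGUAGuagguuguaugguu
mmu-let-7e-5p: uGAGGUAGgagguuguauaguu
The 8 let-7 family names detected on both arrays had scaled log2 ratios from 0.00 (miR-98) to 1.37 (let-7c), all below the 4.79 of miR-196b, and their unscaled ones ran from -0.72 to 0.64. The ninth name, let-7e, was detected in LKS cells only, at 40.2 ± 4.85 against 1.30 ± 2.87. Its LKS signal as read was 9.42-fold its total BM signal plus 2 errors (7.04) after scaling, and 5.71-fold as deposited. These limits allow for the error of the total BM signal but not for that of the LKS signal. On each scale they lay above the ratios of the other 8. The ratio of let-7e cannot be ordered against that of miR-196b. In total BM, let-7 family signals reached 1145 intensity units (let-7i) while the miR-196b probe set read 9.78 and that of miR-196a 0.246. Whether let-7 RNAs add to the signals of the miR-196 probe sets was not tested.

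The other arms of the Hox cluster hairpins were measured for miR-10a, miR-10b and miR-196a, under star names, and none was detected. MiR-10a* read -8.55 ± 1.91 in LKS cells and -4.75 ± 2.01 in total BM, on arrays where the 5p arm of the same hairpin read 219 and 144. MiR-10b* read -8.63 and -7.27, and miR-196a*, which RefSeq names miR-196a-2-3p, read -9.49 and -7.34. No other arm of miR-196b was analysed here. The hairpins of the detected members are shown to place the arms, with both annotated arms in capitals, that of miR-196b from chr6:52230081-52230165 on the minus strand and that of miR-10a from chr11:96317165-96317274 on the plus strand (RefSeq, GRCm38.p6).
Mir196b hairpin: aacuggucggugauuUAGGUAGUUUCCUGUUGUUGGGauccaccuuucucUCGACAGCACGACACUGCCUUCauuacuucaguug
Mir10a hairpin: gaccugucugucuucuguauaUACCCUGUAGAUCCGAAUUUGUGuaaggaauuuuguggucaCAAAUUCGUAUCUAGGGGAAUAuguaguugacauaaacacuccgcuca
In each hairpin the first stretch in capitals is the 5p arm, the arm that was detected.

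The miRNAs most like each detected member were taken as the 3 with the nearest log2 ratio among the 93 shared names, a likeness over 2 arrays only. For miR-196b they were miR-99a (log2 ratio 3.92 ± 0.31), miR-130a (3.86 ± 0.29) and miR-542-5p (2.93 ± 0.45). MiR-196b exceeded miR-99a by 0.87 ± 0.56 and miR-130a by 0.94 ± 0.55, both under 2 errors, so the order of these top 3 is not settled by the technical error. It exceeded miR-542-5p by 1.86 ± 0.64. All of these were faint in total BM, at 17.6 ± 3.37 for miR-99a, 16.6 ± 3.13 for miR-130a and 7.43 ± 2.18 for miR-542-5p. For miR-10a the nearest were let-7c (1.37 ± 0.19), miR-221 (1.38 ± 0.28) and miR-92a (1.27 ± 0.19). Their ratios differed from that of miR-10a by 0.03 to 0.06, within the errors of 0.26 to 0.33.

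**Figure D3:**
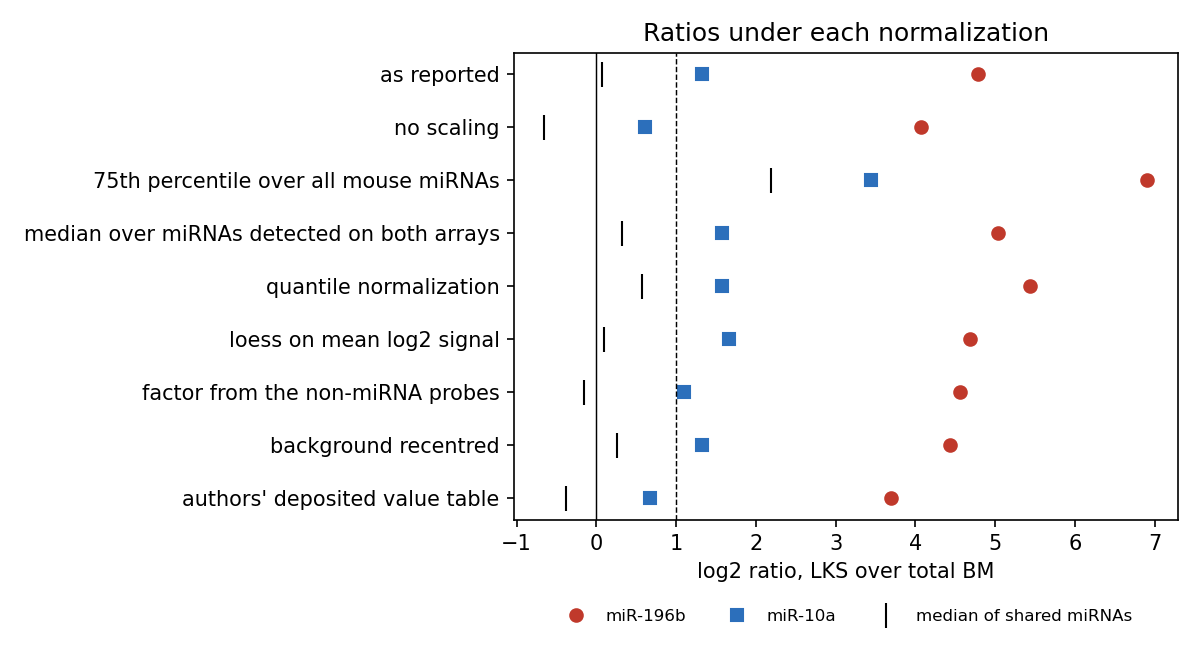
Log2 ratio of LKS over total BM (horizontal axis) of miR-196b in red circles, miR-10a in blue squares and the median of the 93 shared miRNAs as black ticks, for the scaling used (top) and 8 alternatives. MiR-196b lies between 3.69 and 6.91 and miR-10a between 0.61 and 3.45, where the dashed line marks 2-fold. MiR-10a falls below it without scaling and in the authors' deposited value table (0.68).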

How the data were processed

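The table the authors deposited holds, per the file headers, a linear intensity for each miRNA (total gene signal) with its error, and a detection call of 0 or 1. Its intensity values had been background-subtracted (315 of 566 mouse names on total BM and 406 on LKS are below 0) and differ in level between arrays. A second deposited table, on a log2-like scale, ranks all 576 miRNA names as the signals do (medians 1.46 and 1.00). The sources used here give neither its transformation nor the detection rule nor the extraction software. With 1 array per group, the number of arrays limits the precision. Signals were scaled to the 75th percentile of the 93 miRNAs detected on both arrays, and log2 ratios taken as LKS minus total BM, with errors propagated from the deposited ones. The threshold for a higher or lower level was 2-fold. The code for scaling and counting was tested on simulated data with equal numbers of raised and lowered miRNAs, constant noise and no background offset. That setting is simpler than these arrays, so the test does not bear on the ratios reported here. Alternatives were other scalings, recentred background (each array's median undetected signal subtracted), the deposited values, other thresholds and a detection rule of 3 errors. Sequences and neighbouring genes came from RefSeq tables of GRCm38.p6, matched by name. The array files name no build. The members, lists and named miRNAs (all members, other arms, sequence relatives, and the 3 nearest in ratio to each detected member) were chosen with earlier results of these data known. Python 3.11.15, numpy 2.4.6 and pandas 2.3.3 were used.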

Additional observations from a re-analysis of the deposited data

How the results depend on the processing

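No paired analysis was possible because there is a single array per group, which also allows no leave-one-out. The log2 ratio of miR-196b (4.79) was 4.07 without scaling, 6.91 with scaling on all mouse miRNAs, 5.44 with quantile normalization and 3.69 in the authors' deposited value table. It was 4.10 with the total BM signal raised by 2 errors, a setting chosen after seeing the data. It moved by less than its error of 0.46 under median scaling, loess, scaling on the 6 non-miRNA probes and recentred background. The log2 ratio of miR-10a (1.33) was 0.61 without scaling, 3.45 with scaling on all miRNAs, 1.58 with median scaling and with quantile normalization, 1.66 with loess, 1.10 with the non-miRNA probes and 0.68 in the deposited value table. No setting turned the sign of either ratio. The number of members at least 2-fold higher was 2, and fell to 1 without scaling and with a 4-fold threshold. It was 2 with a 1.5-fold threshold and the other scalings counted. The count was not made in the deposited value table, where miR-10a was below 2-fold (0.68), or with recentred background, where it was above (1.32). Requiring a signal above 3 errors gave the same 2 detected members on each array. The recentred comparison of undetected members and the alternatives to the difference between miR-196b and miR-10a were also added after seeing the data. The depth of detection limits the 4 undetected members, for which no ratio was measurable. Scaling on all miRNAs, where the 75th percentile lay at or near background, moved the median of the shared ratios from 0.07 to 2.19.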
